A study of Rattus norvegicus with 12 samples.

Results

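Axon guidance ligands and receptors were followed in the bone of pre-pubertal female Sprague-Dawley rats. The members were the genes whose probe sets carried exactly 1 symbol matching the names of the semaphorins (Sema3 to Sema7), plexins, neuropilins, ephrins, Eph receptors, Slits, Robo receptors, netrins (Ntn1 to Ntn5), Unc5 receptors or Dcc. This rule found 58 genes on 97 probe sets, out of 14217 genes on 20826 probe sets with a single symbol. There were 17 semaphorins, 8 plexins, 2 neuropilins, 5 ephrins, 12 Eph receptors, 3 Slits, 3 Robo receptors, 2 netrins and 6 genes whose symbols begin with Unc5 or are Dcc. Of these last 6, Unc50 (a Golgi membrane protein) and Unc5cl (a death domain protein related in sequence to the Unc5 receptors) matched the letters of the rule without being guidance receptors. They are kept in the counts and named where they appear.

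The 4 groups were rats of postnatal day 34, weaned to purified diets. SPI rats ate soy protein isolate as the protein source, E2 rats ate casein and received 17β-estradiol from a subcutaneous pump, SPI+E2 rats had the soy diet and the pump, and CAS rats ate casein alone. Tibia RNA was taken after the marrow had been aspirated, and each of the 3 arrays of a group (an Affymetrix rat expression array) held pooled RNA of 2 to 3 rats. A pool averages its rats, so the spread between arrays is a spread between pools, and aspiration leaves whatever blood, marrow, cartilage, vessel and nerve remained with the bone.

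Guidance molecules steer growing axons by binding receptors on the growth cone, where they turn the actin skeleton towards or away from the source. Secreted class 3 semaphorins bind neuropilins, which pair with plexins to pass the signal on, whereas membrane-bound semaphorins bind plexins directly. Ephrins are tethered to the cell surface and signal both into the cell with the Eph receptor and back into their own cell. Slits repel through Robo receptors, and netrins attract through Dcc or repel through Unc5. In bone, work in mice has given several of these proteins parts outside the nervous system, among them Sema3a as a brake on osteoclasts and an aid to osteoblasts, Sema4d from osteoclasts as a brake on osteoblasts through Plxnb1, and signals between Ephb4 and its ephrin ligand in both of these cells.

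All values are centred log2 values. Each probe set was set to its median over the 12 arrays, so a value says how far an array lies from that median and nothing of how abundant the transcript is. Levels of different genes, and the presence or absence of a marker, could not be read from them. A gene's value is the mean of its probe sets, and 24 of the 58 genes had more than 1. A gene was called changed when limma gave an adjusted p under 0.05 over all 14217 genes. One array, SPI 1, was more widely spread than the rest, with an interquartile range of 0.229 over all probe sets, against 0.123 to 0.163 for the other 11. For several results that rest on SPI 1, the outcome without it is also given.

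Markers of nerve differed sharply between the groups and are needed beside every result. The mean centred value of 47 genes of sensory neurons, neurons and Schwann cells lay between 0.35 and 0.37 on the SPI arrays, 0.17 and 0.18 on the E2 arrays, -0.22 and -0.18 on the SPI+E2 arrays and -0.35 and -0.33 on the CAS arrays. Against CAS, 14, 13 and 3 of 14 sensory neuron genes rose with SPI, E2 and SPI+E2, as did 19, 17 and 14 of 20 neuron genes. Of 13 Schwann cell genes, 10 rose with SPI, 7 rose and 1 fell with E2, and 2 rose and 3 fell with SPI+E2. Chondrocyte genes went the other way, with 9 of 13 lower and 1 higher in SPI, 6 lower and 1 higher in E2, and 9 lower in SPI+E2. Endothelial genes moved less, with 3 of 14 lower in SPI, 2 lower in E2 and 2 higher in SPI+E2. Markers of blood and dividing cells fell in all 3 treatments, with 7, 9 and 8 of 9 erythroid genes and 11, 19 and 16 of 19 cell division genes lower in SPI, E2 and SPI+E2. Osteocyte genes were lower in SPI (5 of 7) and SPI+E2 (4 of 7), skeletal muscle genes were lower in SPI (9 of 14), and central glia genes were higher in SPI (7 of 13) and lower in E2 (4 of 13). The part of these other lists in the guidance gene results was not tested. In RNA of whole bone, fewer cells of a type and less RNA per cell cannot be told apart.

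**Figure D1:**
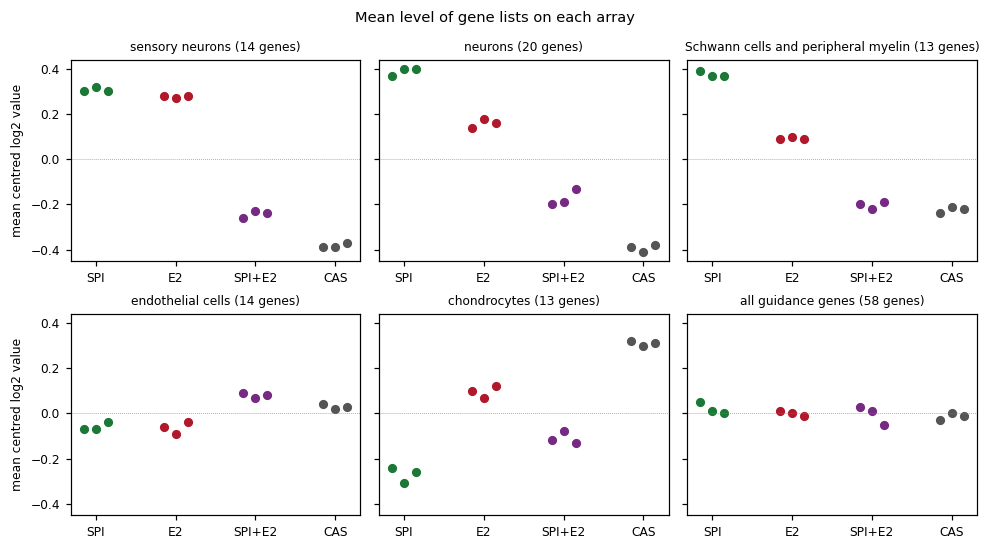
Mean centred log2 value (vertical axis) of the genes of 5 cell type lists and of all 58 guidance genes on each of the 3 arrays (points) of SPI, E2, SPI+E2 and CAS. The nerve lists stand highest in SPI and lowest in CAS, while the mean of the guidance genes stays between -0.05 and 0.05 on every array.

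As a whole the guidance genes did not move together. Their mean per array lay between 0 and 0.05 in SPI, -0.01 and 0.01 in E2, -0.05 and 0.03 in SPI+E2 and -0.03 and 0 in CAS, and the groups overlapped. With SPI, 9 of the 58 genes rose, where 10.7% of all genes tested did, and 4 fell, where 14.6% of all genes did. With E2, 4 rose, beside 6.98% of all genes, and 2 fell, beside 7.23%. With SPI+E2, 2 rose, beside 5.8% of all genes, and 7 fell, beside 7.06%. The shares of guidance genes were 15.5% and 6.9% for SPI, 6.9% and 3.45% for E2, and 3.45% and 12.1% for SPI+E2, each higher then lower. They were above those of the whole table for the rises under SPI and the falls under SPI+E2, and near or below them otherwise. The median differences over the 58 genes were -0.01, 0 and 0.03, beside -0.01, -0.01 and 0 over all genes. No member changed by as much as 1.5-fold against CAS except Sema3b under E2. Complete separation of the arrays of 2 groups, described below for single genes, was common. Against CAS it held for 28, 18 and 20 of the 58 under SPI, E2 and SPI+E2, beside 40%, 34.5% and 34.3% of all genes. In SPI against E2 it held for 22 of the 58 and 39.1% of all genes. In SPI+E2 against SPI it held for 22 and 30.5%, and in SPI+E2 against E2 for 27 and 36.4%. What follows describes single genes with small changes, and a shift of a pathway was not tested.

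**Figure D2:**
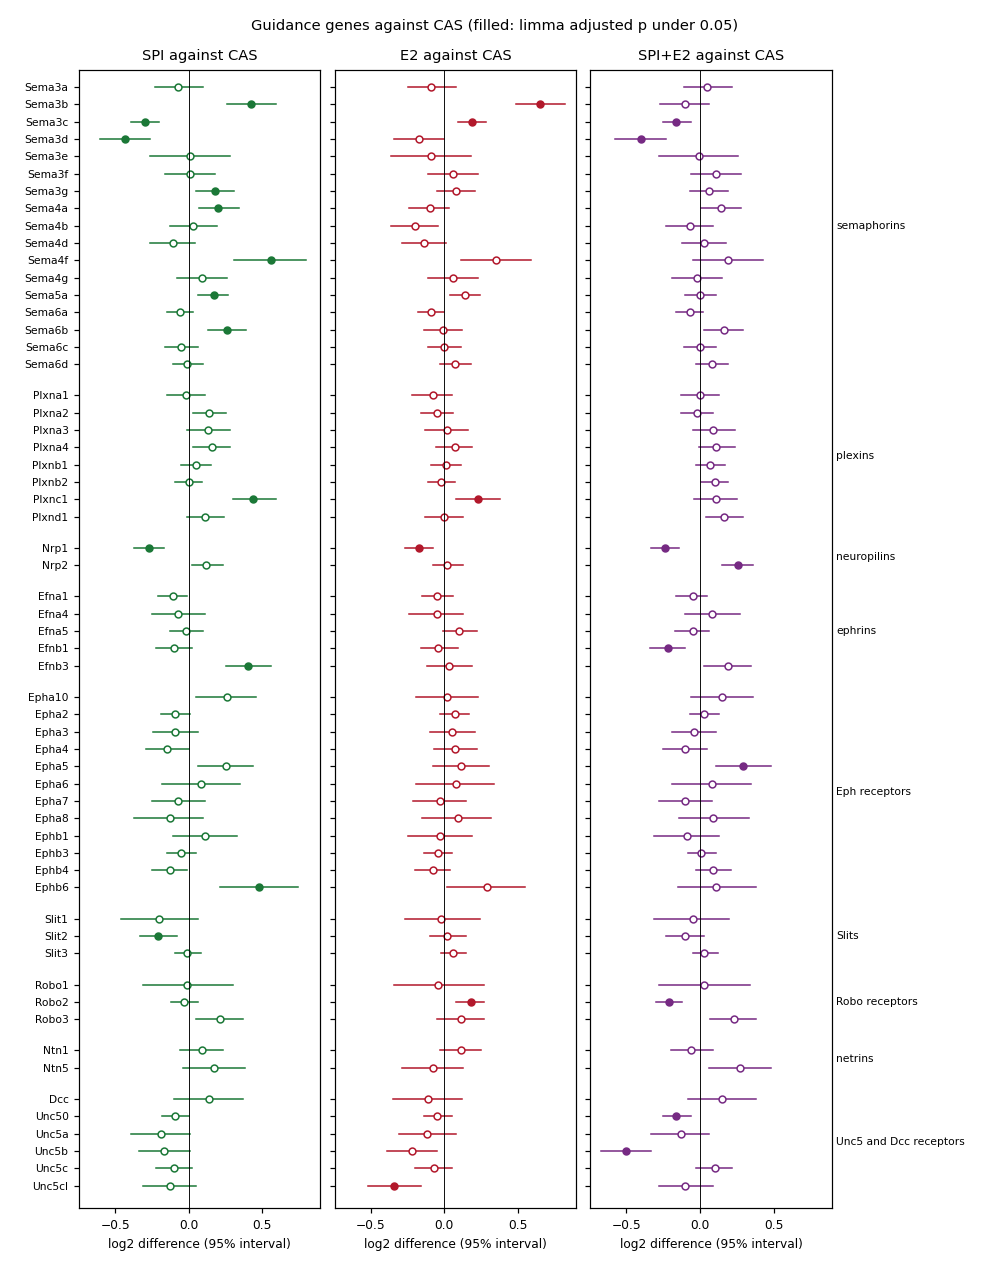
Log2 difference (horizontal axis, with 95% intervals) of each of the 58 genes in SPI, E2 and SPI+E2 against CAS, ordered by family. Filled points passed the limma test. The largest differences are those of Sema3b under E2 (0.65), Sema4f under SPI (0.56) and Unc5b under SPI+E2 (-0.50), and most open points lie close to 0.

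The semaphorins, the largest family, held most of the calls under SPI. There 6 of 17 were higher (35.3%) and 2 lower (11.8%), beside 10.7% and 14.6% of all genes. Under E2 2 were higher (11.8%), beside 6.98% of all genes, and under SPI+E2 2 were lower (11.8%), beside 7.06%. Sema3b, a secreted semaphorin that repels axons through neuropilins, was the gene with the largest change. It had 0.18, 0.17 and 0.16 on the SPI arrays, 0.36, 0.27 and 0.57 on the E2 arrays, -0.44, -0.29 and -0.34 on the SPI+E2 arrays, and -0.16, -0.38 and -0.22 on the CAS arrays. Every SPI and E2 array lay above every CAS array, whereas the SPI+E2 and CAS arrays overlapped. Sema3b rose by 0.65 with E2 (SE 0.0766, 1.57-fold, adjusted p = 0.000108) and by 0.42 with SPI (SE 0.0766, 1.34-fold, adjusted p = 0.00188). With both it was 0.10 below CAS, which did not pass (95% interval -0.27 to 0.06, adjusted p = 0.426). Both calls were kept on leaving out each of the 12 arrays in turn.

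Sema3c, another secreted semaphorin, known in mice for its part in the outflow tract of the heart, moved in opposite directions under the single treatments. Its values were -0.23, -0.20 and -0.21 in SPI, 0.27, 0.23 and 0.32 in E2, -0.12, -0.03 and -0.05 in SPI+E2, and 0.11, 0.03 and 0.13 in CAS. The SPI and E2 arrays lay wholly on either side of the CAS arrays. The fall of Sema3c with SPI was -0.30 (SE 0.0439, adjusted p = 0.000465) and its rise with E2 was 0.19 (SE 0.0439, adjusted p = 0.0135). The direct comparison of SPI with E2 gave -0.48 (SE 0.0439, 1.4-fold, adjusted p = 1.71e-05), the smallest adjusted p of any guidance gene in that comparison, and it stayed a call without any one array. The rise with E2 was lost without CAS 2 or without E2 3, where the adjusted p reached 0.0629. Under SPI+E2 Sema3c was lower than in CAS by 0.16 (adjusted p = 0.0388), a call lost in 7 of the 12 fits that left out 1 array.

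Sema3d, a secreted semaphorin of the same class, was low in SPI and SPI+E2. It had -0.34, -0.03 and -0.10 in SPI, 0.03, 0.12 and 0.17 in E2, -0.16, -0.03 and -0.21 in SPI+E2, and 0.22, 0.36 and 0.23 in CAS, so that all CAS arrays stood above all others. It fell by 0.43 with SPI (SE 0.0784, 1.35-fold, adjusted p = 0.00197) and by 0.40 with SPI+E2 (SE 0.0784, 1.32-fold, adjusted p = 0.00601). Without SPI 1, the lowest array, the fall with SPI was -0.34 (adjusted p = 0.00431).

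Sema4f, a transmembrane semaphorin of neurons, had 0.12, 0.32 and 0.47 in SPI, 0.14, 0.21 and -0.04 in E2, -0.07, 0.04 and -0.15 in SPI+E2, and -0.47, -0.21 and -0.07 in CAS. The CAS arrays were widely spread, and the E2 arrays stood above them by a narrow margin. Sema4f rose by 0.56 with SPI (SE 0.111, 1.47-fold, adjusted p = 0.00353). The E2 difference of 0.35 missed the threshold (adjusted p = 0.0589), and that of SPI+E2 was 0.19 (95% interval -0.05 to 0.43).

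The other semaphorins that rose with SPI did so by less. Sema6b, a transmembrane ligand of A-type plexins, was higher by 0.26 (SE 0.0593, adjusted p = 0.00699) and stayed a call without any one array. Sema4a, a membrane semaphorin of immune cells among others, was higher by 0.20 (adjusted p = 0.032), and Sema5a, which carries thrombospondin repeats, by 0.17 (adjusted p = 0.0243). Sema3g, known from endothelium in mice, was higher by 0.18 (adjusted p = 0.0493). Sema3g and Sema4a lost their calls without SPI 1, with adjusted p = 0.169 for Sema3g and 0.0683 for Sema4a. Sema3g lost its call in 10 of the 12 fits that left out 1 array, Sema4a also without CAS 1, CAS 3 or SPI 2 (adjusted p up to 0.117), and Sema5a without CAS 1, CAS 3 or SPI 3 (adjusted p up to 0.0901). Sema3g also rested on one of its 2 probe sets, which differed by 0.32, against 0.03 on the other. Of the 4 probe sets of Sema5a, SPI was higher by 0.20, 0.20, 0.22 and 0.04.

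The remaining 9 semaphorins passed no test against CAS. Among them Sema3a, the bone-protecting semaphorin of mice, had values from -0.14 to 0.08 in SPI, -0.13 to 0 in E2, 0.01 to 0.23 in SPI+E2 and -0.03 to 0.16 in CAS. Each treatment overlapped with CAS. The SPI+E2 arrays lay above the E2 arrays, but Sema3a was not called in that comparison. The 95% intervals of the Sema3a differences from CAS, -0.23 to 0.10 for SPI, -0.25 to 0.08 for E2 and -0.11 to 0.22 for SPI+E2, leave room for a change of a size like those called elsewhere. Sema4d differed by -0.11, -0.14 and 0.03 under SPI, E2 and SPI+E2, and Sema6d, a partner of Plxna1 in mouse osteoclasts, by -0.01, 0.07 and 0.08.

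Among the receptors of semaphorins, Nrp1 was the only member that fell under all 3 treatments. Nrp1 is a co-receptor of class 3 semaphorins and of vascular endothelial growth factor. Its values were -0.15, -0.06 and -0.02 in SPI, 0.02, 0 and 0.04 in E2, -0.07, -0.06 and 0 in SPI+E2, and 0.21, 0.14 and 0.23 in CAS. Every treated array lay below every CAS array. The falls were 0.27 with SPI (SE 0.0448, 1.2-fold, adjusted p = 0.0011), 0.17 with E2 (SE 0.0448, 1.13-fold, adjusted p = 0.0208) and 0.24 with SPI+E2 (SE 0.0448, 1.18-fold, adjusted p = 0.00526). All 3 comparisons share the CAS arrays, so 3 falls are not 3 independent observations. The E2 call was lost without CAS 1, CAS 3, E2 1 or E2 2, with adjusted p up to 0.088. Nrp1 had 2 probe sets, with differences of -0.31 and -0.23 for SPI, -0.25 and -0.10 for E2, and -0.30 and -0.17 for SPI+E2. Endothelium carries Nrp1, and the 14 endothelial genes averaged -0.07 to -0.04 in SPI, -0.09 to -0.04 in E2, 0.07 to 0.09 in SPI+E2 and 0.02 to 0.04 in CAS. Their part in the fall of Nrp1 was not tested.

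Nrp2, the neuropilin preferred by Sema3f, did the opposite under SPI+E2. It had 0.03, 0.02 and 0.04 in SPI, -0.11, -0.04 and -0.07 in E2, 0.10, 0.12 and 0.27 in SPI+E2, and -0.10, -0.12 and -0.06 in CAS, and the SPI+E2 arrays were the highest of all. It rose by 0.26 with SPI+E2 (SE 0.0479, 1.2-fold, adjusted p = 0.00459) and was also 0.24 higher than in E2 alone (adjusted p = 0.0059). Its 2 probe sets disagreed under SPI alone. One gave 0.33 for SPI against CAS and the other -0.09, while under SPI+E2 both were above CAS, by 0.38 and 0.13.

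Plxnc1, the receptor of Sema7a, was the plexin with the largest change. Its values were 0.26, 0.17 and 0.35 in SPI, 0.09, 0.12 and -0.06 in E2, 0.02, -0.08 and -0.17 in SPI+E2, and -0.11, -0.24 and -0.20 in CAS. The group means stepped down in that order, and the SPI arrays overlapped with no other group. Plxnc1 rose by 0.44 with SPI (SE 0.0672, 1.36-fold, adjusted p = 0.000573) and by 0.23 with E2 (SE 0.0672, 1.17-fold, adjusted p = 0.0397). The SPI call was kept without any one array, whereas the E2 call was lost without CAS 2, CAS 3, E2 1, E2 2 or SPI+E2 2, with adjusted p up to 0.14. Its 2 probe sets gave 0.61 and 0.28 for SPI and 0.39 and 0.07 for E2.

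The other 7 plexins passed no test against CAS, although with the unadjusted p of limma under 0.05 Plxna2 and Plxna4 were higher in SPI and Plxnb2 and Plxnd1 in SPI+E2. Plxnd1, the receptor of Sema3e on vessels, had 0.03, 0.11 and -0.03 in SPI, -0.11, 0 and -0.11 in E2, 0.03, 0.17 and 0.05 in SPI+E2, and -0.09, 0 and -0.15 in CAS. Plxna4, a receptor of neurons, had 0.04, 0.17 and -0.01 in SPI, -0.08, 0.03 and -0.02 in E2, 0.07, -0.02 and 0.01 in SPI+E2, and -0.16, 0 and -0.11 in CAS. Neither gene gave a difference past the test. Plxna2, a receptor of Sema3a with Nrp1, had 0.23, 0.09 and 0.11 in SPI, -0.05, -0.07 and -0.03 in E2, 0.07, -0.04 and -0.09 in SPI+E2, and 0.03, -0.03 and 0 in CAS. The SPI arrays were the highest, yet the difference from CAS of 0.14 missed the threshold (adjusted p = 0.0583). The plexins with known parts in mouse bone, Plxna1, Plxnb1 and Plxnb2, differed from CAS by between -0.08 and 0.10 in the 3 treatments.

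**Figure D3:**
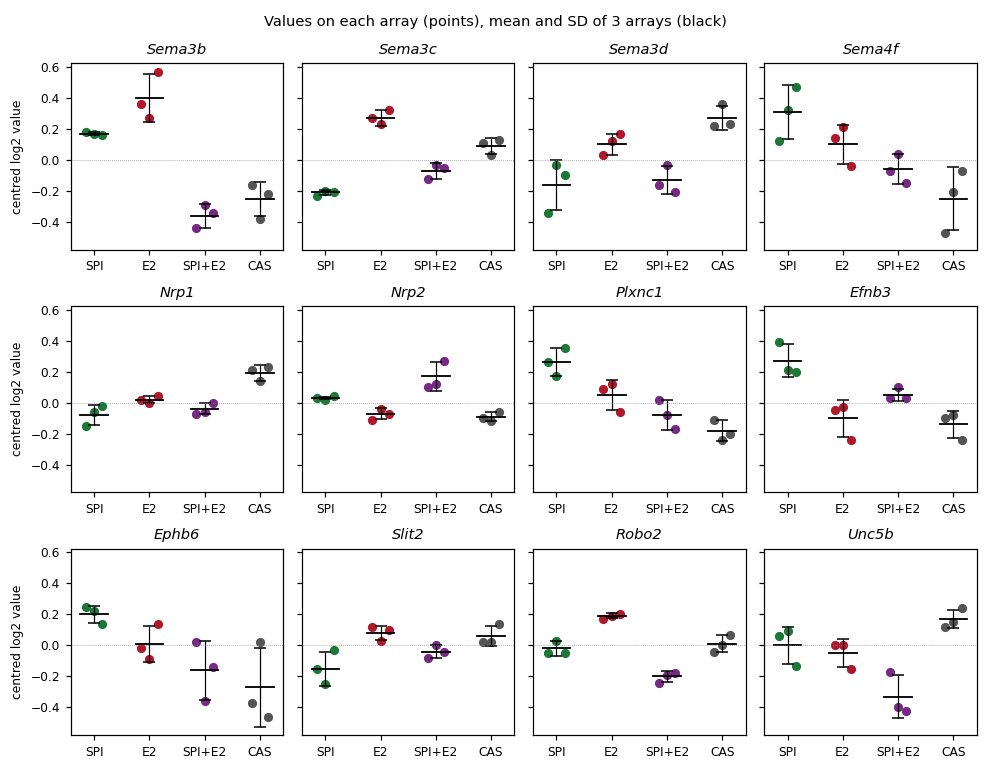
Centred log2 values (vertical axis) of 12 guidance genes on each array (points), with the mean and SD of the 3 arrays of SPI, E2, SPI+E2 and CAS (black). Sema3b, Sema4f, Plxnc1 and Ephb6 are high in SPI and low in CAS, Nrp1 and Sema3d are highest in CAS, and Unc5b and Robo2 are lowest in SPI+E2.

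Of the ephrins, Efnb3 and Efnb1 changed. Efnb3, a ligand of EphB receptors that forms a midline barrier in the mouse spinal cord, had 0.39, 0.21 and 0.20 in SPI, -0.05, -0.03 and -0.24 in E2, 0.03, 0.10 and 0.03 in SPI+E2, and -0.10, -0.08 and -0.24 in CAS. The SPI arrays stood above the other 9. Efnb3 rose by 0.40 with SPI (SE 0.0712, 1.32-fold, adjusted p = 0.00159) and was 0.37 higher in SPI than in E2 (SE 0.0712, adjusted p = 0.00293), and both calls were kept without any one array. Without SPI 1, its highest array, the rise was 0.34 (adjusted p = 0.00596).

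Efnb1, the ephrin whose mutation in humans causes craniofrontonasal syndrome, passed against CAS in the combination. It had -0.02, -0.01 and -0.07 in SPI, -0.03, 0.03 and 0.09 in E2, -0.07, -0.26 and -0.14 in SPI+E2, and 0.02, 0.13 and 0.04 in CAS. It fell by 0.22 with SPI+E2 (SE 0.0549, 1.17-fold, adjusted p = 0.0209), with -0.27 and -0.18 on its 2 probe sets. The call was lost without CAS 2 or SPI+E2 2, with adjusted p up to 0.0771. Efna1, Efna4 and Efna5 differed from CAS by between -0.11 and 0.10 and passed no test.

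The 12 Eph receptors gave 1 call under SPI and 1 under SPI+E2, both higher (8.33% each, beside 10.7% and 5.8% of all genes). None passed with E2 in the limma test, where Ephb6 alone had an unadjusted p under 0.05 (1 of 12). Ephb6, an Eph receptor without kinase activity, had 0.25, 0.22 and 0.14 in SPI, -0.02, -0.09 and 0.14 in E2, 0.02, -0.36 and -0.14 in SPI+E2, and -0.37, 0.02 and -0.46 in CAS. It rose by 0.48 with SPI (SE 0.121, 1.39-fold, adjusted p = 0.0133), and the CAS arrays were far apart, so the call was lost without CAS 1 or CAS 3, with adjusted p up to 0.0594. Epha5, a receptor of ephrin-A ligands in the mapping of brain connections, had 0.07, 0.10 and 0 in SPI, -0.02, -0.01 and -0.22 in E2, 0.22, 0.07 and 0.02 in SPI+E2, and -0.30, 0 and -0.27 in CAS. The SPI+E2 rise of Epha5, 0.29 (SE 0.0862, adjusted p = 0.0449), was lost in 8 of the 12 fits that left out 1 array.

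Epha10, like Ephb6 without a working kinase, had 0.26, 0.32 and 0.03 in SPI, -0.04, -0.02 and -0.05 in E2, 0.31, 0.08 and -0.09 in SPI+E2, and -0.07, -0.11 and 0.02 in CAS. Its SPI arrays stood above the CAS arrays, but no difference passed. Epha4, a receptor that binds both classes of ephrins, had 0, -0.14 and -0.17 in SPI, 0.14, -0.02 and 0.24 in E2, -0.01, -0.05 and -0.10 in SPI+E2, and 0, 0.04 and 0.11 in CAS. Epha4 was lower in SPI than in E2 by 0.22 (adjusted p = 0.0311), with overlapping arrays. Ephb4, the receptor of osteoblasts in mice, differed from CAS by -0.13, -0.08 and 0.09 under SPI, E2 and SPI+E2. Its difference in SPI+E2 against SPI, 0.22, did pass (SE 0.0553, adjusted p = 0.019). That call was lost without SPI 1, SPI+E2 2 or SPI+E2 3 (adjusted p up to 0.0603). Epha2 lay 0.09 below CAS in SPI and 0.07 above it in E2. Neither of these passed, whereas Epha2 in SPI against E2 did, at -0.15 (adjusted p = 0.0307). That call was lost without SPI 1, SPI 2, E2 1 or E2 3 (adjusted p up to 0.122).

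Slit2, a secreted repellent bound by Robo receptors, was the only Slit that changed. It had -0.15, -0.25 and -0.03 in SPI, 0.12, 0.03 and 0.10 in E2, -0.08, 0 and -0.04 in SPI+E2, and 0.02, 0.02 and 0.14 in CAS. It fell by 0.21 with SPI (SE 0.0577, 1.16-fold, adjusted p = 0.0207), a call lost without SPI 1, SPI 2 or CAS 3, with adjusted p = 0.0506 without SPI 1. The 3 probe sets of Slit2 differed by -0.45, -0.21 and 0.04 for SPI, so the fall was carried by 2 of them. Slit1, a Slit of the brain, had -0.47, -0.02 and 0.02 in SPI, 0.13, -0.01 and -0.03 in E2, 0.12, -0.17 and 0.03 in SPI+E2, and 0.15, -0.01 and 0.01 in CAS, and the low value of SPI 1 set its mean. Slit3, released by mouse osteoclasts, differed from CAS by no more than 0.06 in any treatment.

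Robo2, a Slit receptor, had some of the tightest arrays of all members. Its values were -0.05, 0.03 and -0.05 in SPI, 0.17, 0.19 and 0.20 in E2, -0.24, -0.19 and -0.18 in SPI+E2, and -0.04, 0 and 0.07 in CAS. The E2 arrays lay above, and the SPI+E2 arrays below, all arrays of the other groups. Robo2 rose by 0.18 with E2 (SE 0.042, 1.13-fold, adjusted p = 0.0141) and fell by 0.21 with SPI+E2 (SE 0.042, 1.16-fold, adjusted p = 0.00698). The rise was lost without CAS 1, CAS 2 or E2 3, with adjusted p up to 0.0668, and the fall was kept without any one array. Its 3 probe sets gave 0.27, 0.11 and 0.14 for E2 and -0.14, -0.21 and -0.28 for SPI+E2.

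Robo3, which lets axons cross the midline, had 0.21, 0 and 0.08 in SPI, -0.02, 0 and 0.01 in E2, 0.15, 0.22 and -0.03 in SPI+E2, and -0.13, -0.02 and -0.19 in CAS, with no difference past the test. Robo1 was measured with little precision. Its SPI arrays alone ran from -0.29 to 0.41, and the 95% interval of the SPI difference of Robo1 was -0.31 to 0.30.

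The netrins did not pass against CAS in the limma test, where only Ntn5 in SPI+E2 had an unadjusted p under 0.05 (0.0158). Ntn5 had 0.08, 0.18 and 0.07 in SPI, -0.17, -0.13 and -0.12 in E2, 0.51, 0.10 and 0.04 in SPI+E2, and -0.04, -0.08 and -0.05 in CAS, and the single high array SPI+E2 1 made its mean uncertain. Ntn5 was higher in SPI+E2 than in E2 by 0.35 (SE 0.0955, adjusted p = 0.0277), a call lost without any one of the E2 arrays. Ntn1, the founding netrin, had 0.08, 0.04 and 0 in SPI, -0.02, 0.17 and 0.04 in E2, 0, -0.08 and -0.24 in SPI+E2, and 0.01, -0.06 and -0.09 in CAS. Each treatment overlapped with CAS, while the SPI+E2 arrays lay below the SPI arrays. As a gene Ntn1 passed no test. In the limma fit over probe sets, 1 of its 3 passed in SPI+E2 against E2 (-0.30, adjusted p = 0.00965), where the others gave -0.17 and -0.03. The same probe set passed in the interaction (-0.36, adjusted p = 0.0223), where the others gave -0.32 and -0.08.

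Unc5b, a netrin receptor found on vessels as well as neurons, gave the largest change of any guidance gene under SPI+E2. It had 0.06, 0.09 and -0.13 in SPI, 0, 0 and -0.15 in E2, -0.17, -0.40 and -0.42 in SPI+E2, and 0.12, 0.15 and 0.24 in CAS. All treated arrays lay below all CAS arrays, and those of SPI+E2 were the lowest. Unc5b fell by 0.50 with SPI+E2 (SE 0.079, 1.41-fold, adjusted p = 0.00185), 127th of the 14217 genes by absolute size. The falls on its 2 probe sets were -0.51 and -0.49, and the call was kept without any one array. With SPI alone it was lower by 0.17 (adjusted p = 0.152) and with E2 alone by 0.22 (adjusted p = 0.0951), neither of which passed. SPI+E2 was also below each single treatment, by 0.33 against SPI (adjusted p = 0.0129) and by 0.28 against E2 (adjusted p = 0.0334). The call against SPI was lost without SPI 2, SPI+E2 2 or SPI+E2 3 (adjusted p up to 0.0521), and that against E2 without E2 1, E2 2, SPI+E2 2 or SPI+E2 3 (adjusted p up to 0.114).

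Unc5a had 0.03, -0.20 and -0.14 in SPI, 0.03, 0.04 and -0.16 in E2, -0.12, 0.08 and -0.09 in SPI+E2, and 0.26, -0.03 and 0.04 in CAS, and no difference passed. Unc5c had -0.17, -0.17 and 0.05 in SPI, -0.07, -0.05 and -0.07 in E2, 0.10, 0.14 and 0.06 in SPI+E2, and -0.02, -0.02 and 0.06 in CAS, with no difference from CAS past the test. Dcc, the attractive netrin receptor, ran from -0.13 to 0.26 in SPI, -0.20 to 0 in E2, 0 to 0.29 in SPI+E2 and -0.09 to 0.09 in CAS. Of the 2 genes that only share the name, Unc5cl had 0.05, -0.09 and 0.02 in SPI, -0.25, -0.11 and -0.31 in E2, 0.03, 0.07 and -0.02 in SPI+E2, and 0.07, 0.32 and -0.02 in CAS. It fell by 0.34 with E2 (SE 0.0823, adjusted p = 0.0142), a call lost without E2 1 or E2 3 (adjusted p up to 0.0641). Unc50 had -0.05, -0.03 and 0.02 in SPI, 0.07, -0.02 and 0.03 in E2, -0.06, -0.14 and -0.06 in SPI+E2, and 0.05, 0.08 and 0.08 in CAS. It fell by 0.16 with SPI+E2 (adjusted p = 0.0323), a call lost without any one of the CAS arrays, SPI+E2 1 or SPI+E2 2 (adjusted p up to 0.116). Without these 2 genes, 4 of 56 rose and 1 fell with E2, and 2 rose and 6 fell with SPI+E2.

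Set against each other, SPI and E2 differed in 13 of the 58 genes. There were 6 higher in SPI, where 11.1% of all genes were, and 7 lower, where 13% of all genes were, which is a share near that of the whole table. Those higher in SPI were Efnb3 (0.37), Sema4a (0.30), Sema6b (0.27), Sema4b (0.23), Plxnc1 (0.21) and Plxna2 (0.19). Those lower in SPI were Sema3c (-0.48), Sema3d (-0.26), Sema3b (-0.23), Slit2 (-0.23), Epha4 (-0.22), Robo2 (-0.21) and Epha2 (-0.15). Of the 7 class 3 semaphorins measured, 3 were among these lower genes (42.9%), beside 13% of all genes. Calls that were kept without any one array were those of Efnb3, Sema3c, Sema4a, Sema6b and Robo2. The Sema3b call was lost in 10 of 12 such fits, that of Sema4b in 7 and that of Plxnc1 in 6. Epha2 and Epha4 lost theirs in 4 each, Sema3d in 3, and Plxna2 and Slit2 in 2 each. Without SPI 1 the calls of Sema3b, Sema3d, Sema4b, Plxnc1, Plxna2 and Epha2 were lost. The 3 probe sets of Robo2 gave -0.15, -0.42 and -0.06, and the 4 of Epha4 gave -0.10, -0.41, 0.01 and -0.38.

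Adding E2 on the soy diet, SPI+E2 against SPI, raised 3 genes, where 9.12% of all genes rose, and lowered 7, where 8% of all genes fell. The falls were those of Sema3b (-0.53, SE 0.0766, adjusted p = 0.000559), Sema4f (-0.37), Plxnc1 (-0.34), Unc5b (-0.33), Robo2 (-0.18), Sema5a (-0.16) and Plxna2 (-0.16). The rises were Ephb4 (0.22), Unc5c (0.20) and Sema3c (0.14). In this comparison only Sema3b and Plxnc1 stayed called without any one array, and the count of 10 fell to 3 without SPI+E2 2 or without SPI+E2 3. Without SPI 1 the calls of Ephb4, Unc5c, Sema3c, Sema5a and Plxna2 were lost. Adding soy protein under E2, SPI+E2 against E2, raised 3 genes, beside 7.32% of all genes, and lowered 5, beside 8.23%. Sema3b was lower by 0.76 (SE 0.0766, 1.69-fold, adjusted p = 6.29e-05), the 49th largest of all 14217 differences. Robo2 was lower by 0.39 (SE 0.042, adjusted p = 0.000107) and Sema3c by 0.34 (SE 0.0439, adjusted p = 0.000366), and these 3 falls and the rise of Nrp2 were kept without any one array. Efnb1 was lower by 0.19 and Sema4a higher by 0.24.

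The interaction asks whether E2 changed a gene to a different extent on the soy diet than on casein. It is the difference SPI+E2 minus SPI less the difference E2 minus CAS. Of the 58 genes, 4 had a positive interaction past the test, where 8.03% of all genes had, and 6 a negative one, where 7.72% had. The negative ones were Sema3b, Sema4f, Ephb6, Plxnc1, Robo2 and Sema5a. In all 6 the E2 difference was above 0 on casein and below 0 on soy. Choosing genes by a negative interaction favours such signs. On casein the E2 difference passed for Sema3b, Plxnc1 and Robo2, and not for Sema4f, Ephb6 or Sema5a. On soy it passed for all but Ephb6. For Sema3b the differences were -0.53 on soy and 0.65 on casein, an interaction of -1.18 (SE 0.108, adjusted p = 1.36e-05). The sum of its single changes was 1.08, while SPI+E2 differed from CAS by -0.10. For Sema4f the differences were -0.37 on soy and 0.35 on casein (interaction -0.72, SE 0.157, adjusted p = 0.00862). For Plxnc1 they were -0.34 and 0.23 (interaction -0.57, SE 0.095, adjusted p = 0.00151), for Robo2 -0.18 and 0.18 (-0.36, SE 0.0594, adjusted p = 0.00153) and for Sema5a -0.16 and 0.14 (-0.30, SE 0.0669, adjusted p = 0.00896), each on soy first and on casein second.

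These 5 interactions were kept without any one array. That of Ephb6 (-0.65, SE 0.171, adjusted p = 0.0228) was lost without CAS 1, CAS 3, E2 3 or SPI+E2 2, with adjusted p up to 0.0601. Sema5a had 4 probe sets, of which 2 gave interactions of -0.53 and -0.59 and the other 2 gave -0.14 and 0.05. The 3 probe sets of Robo2 gave -0.53, -0.52 and -0.02, and the 2 of Plxnc1 gave -0.70 and -0.44. The positive interactions were those of Unc5cl (0.38), Ephb4 (0.30), Unc5c (0.27) and Nrp1 (0.21). Ephb4 lost its call without E2 1 or SPI+E2 2, and the other 3 each lost theirs in 10 or 11 of the 12 fits that left out 1 array.

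**Figure D4:**
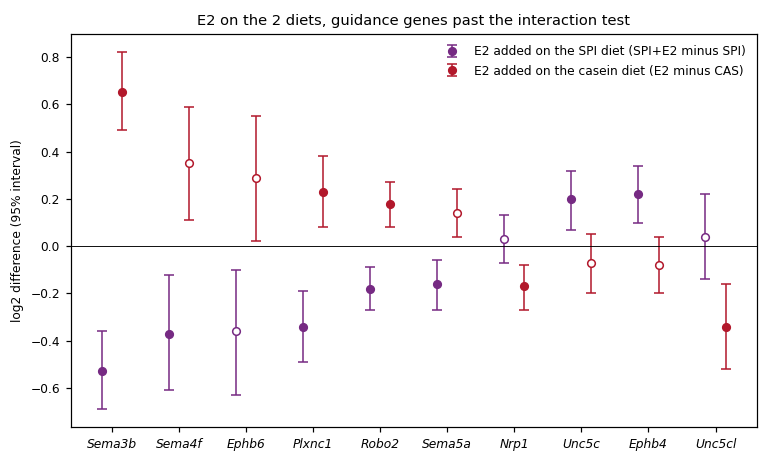
Log2 difference (vertical axis, with 95% intervals) made by E2 on the soy diet (SPI+E2 minus SPI, left point) and on the casein diet (E2 minus CAS, right point) for the 10 genes past the interaction test. Filled points passed the limma test of that difference. From Sema3b to Sema5a the soy points lie below 0 and the casein points above it.

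The nerve lists also had mostly negative interactions. Their interaction medians were -1.33 for sensory neurons, with 14 of 14 genes past the test and negative, -1.04 for neurons, with 19 of 20, and -0.83 for Schwann cells, with 9 of 13. The group means of Sema4f, Plxnc1 and Ephb6 had the order of the nerve level, SPI above E2 above SPI+E2 above CAS. Those of Sema3b and Robo2 were higher in E2 than in SPI and lower in SPI+E2 than in CAS. Sema5a had means of 0.10 in SPI, 0.08 in E2, and -0.06 in both SPI+E2 and CAS. These genes were chosen by a negative interaction, which favours such an order, and its share over all genes was not counted. A part of nerve in these orders was not tested. When the nerve level of each array was put into the model as a covariate, no guidance gene was called by limma in any of the 7 comparisons, 4 to 9 of the 58 had an unadjusted p under 0.05, and no gene of all 14217 was called either. The nerve level hardly varied within a group, so nerve and group cannot be told apart by that fit.

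The promoters of Sema4f, Plxnc1 and Unc5b are shown because the first 2 moved together over the groups and the third had the largest fall under SPI+E2. They run from 250 bases before to 50 after the start of the gene, as given by RefSeq on GRCr8, and lie on the reverse strand at chr4:116995393-116995692 (Sema4f), chr7:31430556-31430855 (Plxnc1) and chr20:29307221-29307520 (Unc5b). Capitals mark the GC box GGGCGG and the NF-Y box CCAAT, on either strand.
Sema4f: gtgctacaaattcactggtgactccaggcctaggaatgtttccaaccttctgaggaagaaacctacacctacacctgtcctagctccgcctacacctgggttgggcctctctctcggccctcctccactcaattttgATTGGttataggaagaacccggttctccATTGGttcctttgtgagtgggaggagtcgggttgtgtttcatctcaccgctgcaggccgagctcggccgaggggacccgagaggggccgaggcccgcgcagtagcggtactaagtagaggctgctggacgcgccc
Plxnc1: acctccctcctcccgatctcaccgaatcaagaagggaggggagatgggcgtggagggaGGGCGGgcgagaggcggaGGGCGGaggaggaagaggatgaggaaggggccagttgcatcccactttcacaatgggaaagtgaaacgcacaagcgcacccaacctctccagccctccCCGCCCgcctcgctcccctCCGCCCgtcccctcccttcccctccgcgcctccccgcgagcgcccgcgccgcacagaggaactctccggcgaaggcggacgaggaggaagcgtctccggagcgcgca
Unc5b: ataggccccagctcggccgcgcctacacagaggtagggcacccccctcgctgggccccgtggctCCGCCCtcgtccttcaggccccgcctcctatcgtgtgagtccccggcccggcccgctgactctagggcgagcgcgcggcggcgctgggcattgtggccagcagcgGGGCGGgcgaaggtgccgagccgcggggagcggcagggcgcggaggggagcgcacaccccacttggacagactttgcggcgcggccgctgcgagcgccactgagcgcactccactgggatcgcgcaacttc
In these windows Plxnc1 held 4 GC boxes and Unc5b 2, while Sema4f held 2 CCAAT boxes and no GC box, so the pair that moved together did not share these letters. A promoter was at hand for 44 of the 58 genes, and not for Sema3b or Efnb3. On both strands, the GC box was in 26 of the 44 (59.1%), beside 33.1% of 33469 rat promoters of the same length, and CCAAT in 16 (36.4%), beside 37.5%. The half-site AGGTCA of nuclear receptors was in 2 (4.55%), beside 16.2%, and the AP-1 site TGANTCA in 1 (2.27%), beside 7.33%. The full inverted repeat of GGTCA with its copies 3 bases apart, which can contain the half-site, was in none, beside 0.0269%. The GC content of the 44 windows ran from 36.3% to 83%, and most lay above the mean of 52.7% over all promoters. Its part in these motif shares was not tested. These counts describe letters in a short window and say nothing of whether a factor binds there.

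Genes downstream of the guidance receptors were taken from 3 lists. Of 24 genes of collapsin response mediators and semaphorin effectors, 6 rose (25%) and 1 fell (4.17%) with SPI, 5 rose (20.8%) with E2 and 2 rose (8.33%) with SPI+E2, beside rises of 10.7%, 6.98% and 5.8% and falls of 14.6%, 7.23% and 7.06% over all genes, with medians of 0.10, 0.04 and 0 beside -0.01, -0.01 and 0 over all genes. Crmp1, a collapsin response mediator of neurons that relays Sema3a, led all 3 and rose by 0.80 with SPI (SE 0.0686, adjusted p = 8.26e-06), 0.52 with E2 and 0.37 with SPI+E2. Its relatives Dpysl5 and Dpysl4 rose by 0.66 and 0.55 with SPI and by 0.51 and 0.39 with E2. These are genes of neurons, and they moved in the same direction as the nerve lists. Under the interaction 6 of the 24 passed, all negative, among them Dpysl4 (-0.99), Crmp1 (-0.95) and Dpysl5 (-0.82).

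Of 29 effectors and partners of Slits, Robo receptors and netrins, 3 rose (10.3%) and 2 fell (6.9%) with SPI. Over all genes these shares were 10.7% and 14.6%, so the list was near or below them in each direction. With E2 3 rose and 3 fell (10.3% each), beside 6.98% and 7.23% of all genes. With SPI+E2 1 fell (3.45%), beside 7.06%. The membrane-anchored netrin Ntng1 and its ligand Lrrc4c rose together, by 0.61 and 0.48 with SPI and by 0.55 and 0.51 with E2. Cxcr4, the chemokine receptor that Slit signals dampen and that marrow cells carry, fell by 0.48 with E2 (SE 0.0412, adjusted p = 1.03e-05) and by 0.15 with SPI+E2.

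Of 19 effectors of Eph receptors and ephrins, 2 rose (10.5%) and 2 fell (10.5%) with SPI, beside 10.7% and 14.6% of all genes. With E2 1 fell (5.26%), beside 7.23%. With SPI+E2 2 rose (10.5%) and 2 fell (10.5%), beside 5.8% and 7.06%. The medians were -0.02, 0 and 0.02, beside -0.01, -0.01 and 0 over all genes. Itsn1, an exchange factor for Cdc42 downstream of EphB receptors, was the gene that fell with E2, by 0.32 (SE 0.0597, adjusted p = 0.00307).

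Of 24 guidance genes with a known part in bone cells, 20 were measured here, and Sema7a, Ephb2, Efna2 and Efnb2 were not analysed. Under SPI 1 of the 20 rose (Plxnc1, 5%) and 2 fell (Nrp1 and Slit2, 10%), beside 10.7% and 14.6% of all genes. Under E2 2 rose (Plxnc1 and Robo2, 10%) and 1 fell (Nrp1, 5%), beside 6.98% and 7.23%. Under SPI+E2 1 rose (Nrp2, 5%) and 4 fell (Nrp1, Unc5b, Efnb1 and Robo2, 20%), beside 5.8% and 7.06%. The ligands and receptors best known from mouse bone, Sema3a, Sema4d, Plxnb1, Ephb4 and Slit3, passed no test against CAS. The median differences of the 20 were -0.01, -0.03 and 0.03, beside -0.01, 0 and 0.03 for all 58 guidance genes.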

How the data were processed

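RNA of 12 pools, 3 in each of the SPI, E2, SPI+E2 and CAS groups, was hybridised to 1 array each. The groups came from the sample labels. GCOS and RMA are named, with no version, in the submitters' processing notes. The authors then used GeneSpring to normalize the log2 values by chip and by gene. The deposited values are taken as log2 and are centred on the median of each probe set over the 12 arrays, so folds are folds of that scale and neither brightness nor background is known. All columns of sample values were used (0 left out).

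Of 31099 probe sets, 57 controls were left out. A single symbol was given for 20826 of the other 31042, several for 436 and none for 9780 in the platform annotation held here, and only those with a single symbol were used. Probe sets of a gene were averaged. All 14217 genes entered 1 model of the 4 groups in limma 3.58.1 under R 4.3.3 (lmFit and eBayes), with Benjamini-Hochberg adjustment over all genes of a comparison. The 7 comparisons set each treatment beside CAS and the treatments beside one another, and the last was the interaction. The model steps were tested on simulated data. The labels do not say whether pools shared rats or days of handling, and p-values measure the spread between pools, with 8 residual degrees of freedom.

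Genes were named when they passed the test in a comparison, when they are known from bone, and, for values per array, when they were among the 4 of their family with the largest change against CAS. Of each downstream list, up to 3 called genes per comparison were eligible. A further downstream list is not reported here. The members and all lists were chosen with earlier results of these data known. Alternatives were the pool number as a block, fits of only the groups compared, quantile normalization, centring of arrays, other variance models, array weights, a fit over probe sets, the nerve level as a covariate, a 1.5-fold limit without a test, and leaving out each array.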

Additional observations from a re-analysis of the deposited data

Results flagged for a closer look

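For 10 guidance genes the effect of E2 differed between the soy and the casein diet by the limma test of that difference (n = 3 arrays a group), which is why they are listed here. On the log2 scale, E2 on soy minus E2 on casein was -1.18 for Sema3b (adjusted p = 1.36e-05), -0.72 for Sema4f (adjusted p = 0.00862), -0.65 for Ephb6 (adjusted p = 0.0228), -0.57 for Plxnc1 (adjusted p = 0.00151), -0.36 for Robo2 (adjusted p = 0.00153) and -0.30 for Sema5a (adjusted p = 0.00896). It was 0.38 for Unc5cl (adjusted p = 0.0461), 0.30 for Ephb4 (adjusted p = 0.0228), 0.27 for Unc5c (adjusted p = 0.042) and 0.21 for Nrp1 (adjusted p = 0.0463). Among the 58 genes these are 4 positive and 6 negative, beside 8.03% and 7.72% of all genes.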

How the results depend on the processing

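Centred values from 3 pools a group limit these results, and levels and detection cannot be judged. Against CAS, SPI changed 13 guidance genes, E2 changed 6 and SPI+E2 changed 9, and there were 13 calls for SPI against E2, 10 for SPI+E2 against SPI, 8 for SPI+E2 against E2 and 10 for the interaction. Leaving out each array gave 9 to 16, 3 to 7, 5 to 11, 7 to 14, 3 to 10, 5 to 10 and 5 to 9, in that order. The count for E2 was 3 without E2 1 or E2 3, that for SPI+E2 was 5 without SPI+E2 2, and that for SPI against E2 was 7 without SPI 1 or E2 3 and 8 without E2 1. For SPI+E2 against SPI it was 3 without SPI+E2 2 or SPI+E2 3, 4 without SPI 2, 5 without SPI 1 and 6 without SPI 3. For SPI+E2 against E2 it was 5 without E2 3, and for the interaction 5 without SPI+E2 2 and 6 without CAS 1 or E2 1. A fit of only the groups compared gave 5 for SPI+E2 against CAS and 3 for SPI+E2 against SPI, and could not be made for the interaction. Quantile normalization gave 5 for SPI+E2 against SPI, the linear model without moderation 8 for SPI against E2, and the fit over probe sets 5 for SPI+E2 against CAS. The cause of these changes was not tested. The 1.5-fold limit without a test, a stricter rule by construction, gave 0, 1, 0, 0, 0, 1 and 3.

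The replicate block gave 15, 6, 10, 12, 9, 10 and 9 calls. Whether the numbers pair the pools is not known. The 18 same-numbered pairs had correlations of deviations from -0.0809 to 0.26 (median 0.0446), beside a median of -0.0233 for different numbers. They ran from -0.0809 to 0.0181 for pool 1, -0.0624 to 0.172 for pool 2 and 0.0711 to 0.26 for pool 3. Of the 18, 6 were over 0.1, and 5 of 12 arrays correlated best with their own number.

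With the nerve level as a covariate, limma called 0 guidance genes in all 7 comparisons, with 4, 4, 5, 9, 4, 4 and 4 at an unadjusted p under 0.05, and 0 of all 14217 genes. The nerve level follows the groups so closely that its estimates are loose, and 20 differences turned their sign, none past the test. These were Sema3b (-0.54), Sema4f (-1.19) and Sema6b (-0.32) for SPI, Sema3b (-0.06), Sema3c (-0.54), Robo2 (-1.04) and Unc5cl (1.44) for E2, and Nrp2 (-0.31) for SPI+E2. They were Epha2 (0.18) and Epha4 (0.05) for SPI against E2, Sema3b (0.25), Sema4f (1.04) and Robo2 (1.15) for SPI+E2 against SPI, Sema3c (0.19), Robo2 (0.51) and Ntn5 (-1.76) for SPI+E2 against E2, and Sema3b (0.31), Sema4f (1.98), Robo2 (2.19) and Unc5cl (-3.34) for the interaction. No direction of a called gene turned under any other alternative.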
